A study of Saccharomyces cerevisiae with 4 samples.

Results

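This account covers 8 genes for small heat shock and stress proteins of the budding yeast Saccharomyces cerevisiae, namely HSP12, HSP26, HSP42, HSP30, HSP31, DDR2, GRE1 and SIP18. They are 8 of the 5539 genes named on the arrays, and each was printed as 2 spots, so that 16 of the 12800 spots belong to them. The spots were taken by the gene symbol in the array's annotation. The list itself was chosen from results of these same arrays, with the mean log2 ratios of HSP12 and HSP26 in view, so the ratios of the 8 genes are given as a description, with no test of each gene. A value on at least 3 arrays was needed for the fit over all genes, and 7 of the 8 genes had that. SIP18 did not.

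The study compared cells exposed to Congo red at 30 µg/ml for 2 h with cells of the same divided culture that received none, both in rich medium at 24 °C. Congo red is a dye that binds chitin and glucan and so weakens the cell wall. Both cultures were BY4741, a haploid a-type laboratory strain that lacks HIS3, LEU2, MET17 and URA3. A ratio between RNAs of 1 strain holds no level, so it cannot show whether markers of the strain are present. Each of the 4 arrays carried Congo red RNA in one channel and untreated RNA in the other: arrays 1 and 3 had Congo red RNA in channel 2, whereas arrays 2 and 4 had it in channel 1. Nothing in the labels tells whether the arrays are separate cultures, so any p-value covers only how far the 4 arrays scatter, which can be technical.

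Values are log2 ratios after each array's median was set to 0. They are read as Congo red over untreated, which is likely but not settled. Between arrays of opposite channel assignment the mean Pearson correlation over genes was -0.04, and between arrays of the same assignment it was 0.19, where a value beyond 0.3 on either side was required to tell whether ratios follow the treatment or the channel. The reading rests on 8 genes known as targets or members of the Slt2-Rlm1 cell wall route: PIR3, PRM5, CRH1, PST1, CWP1, KDX1, SLT2 and NCW2. All 30 of their array values lay above 0, on arrays of both channel assignments, with means between 1.25 and 3.04. Opposite signs between the channel assignments were seen in 0 of the 7 markers with 4 values, beside 26.4% of all genes with 4 values. Signal strengths were not used here, so neither the abundance of a transcript nor its distance from background can be given. RNA came from whole cultures, so a transcript that differs in some cells and one that differs in all cells cannot be told apart. The 4 arrays limit the precision.

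Yeast cells answer many stresses with a shared set of genes. The transcription factors Msn2 and Msn4, held back by protein kinase A, bind the stress response element in the promoters of these genes, while Hsf1 drives the genes of chaperones when proteins unfold. HSP12, HSP26, HSP42, DDR2, GRE1 and SIP18 are textbook members of these responses. Small heat shock proteins with an alpha-crystallin domain, such as Hsp26 and Hsp42, hold unfolding proteins for later refolding, whereas Hsp12 and the hydrophilins Gre1 and Sip18 are small, highly hydrophilic proteins linked to membrane protection and drying.

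HSP12 and HSP26, the best known genes of the group, lay on opposite sides of the array median on every array. HSP12 (YFL014W), for a small protein that folds on contact with lipids and stabilizes the plasma membrane, was at 0.84, 1.39, 1.27 and 1.67 on arrays 1 to 4. All 4 values were above 0, the lowest on array 1 and the highest on array 4. Its mean was 1.29 ± 0.34 (SD, n = 4), a ratio of 2.45, and it ranked 133rd from the highest of 5489 genes tested. HSP26 (YBR072W), for the chaperone whose oligomers are activated by heat, was at -1.19, -0.55, -0.88 and -0.61 on arrays 1 to 4. All 4 values were below 0, with the lowest on array 1. Its mean was -0.81 ± 0.29 (SD, n = 4), which puts untreated cells 1.75-fold above Congo red cells, and it ranked 101st from the lowest.

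The gap between the 2 genes varied less than either gene did. The 2 genes were chosen with their means in view, and other pairs of genes were not compared, so this is a description. HSP12 minus HSP26 was 2.03, 1.95, 2.15 and 2.27 on arrays 1 to 4, with a mean of 2.10 ± 0.14 (SD, n = 4). Such a gap within an array does not depend on which array median is subtracted. Array 1 gave the lowest value of both genes. Among the genes of each array, HSP26 stood at percentiles of 2.4, 20.4, 3.4 and 8.5 on arrays 1 to 4, farthest from the bottom on array 2. HSP12 stood at percentiles of 85.4, 95.3, 93.6 and 99.1 on arrays 1 to 4.

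**Figure D1:**
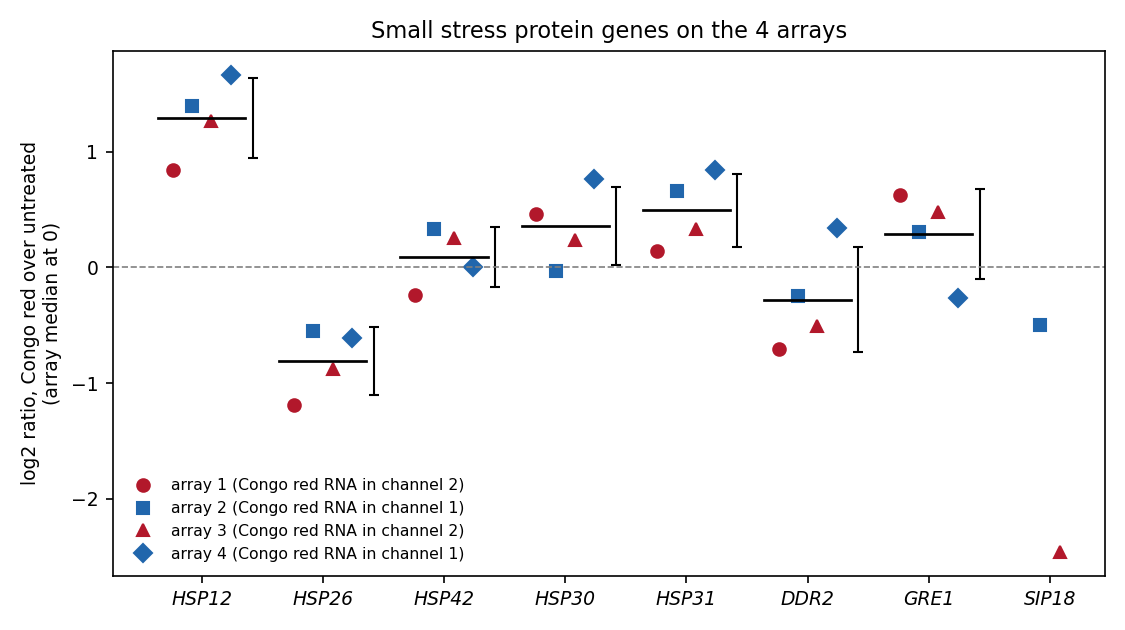
Log2 ratio of each small stress protein gene on each array (y axis, Congo red over untreated, array median at 0). Symbols are arrays and colours the channel of the Congo red RNA; horizontal bars are means and error bars are the SD over 4 arrays, with none for SIP18, which has 2 values. HSP12 lies between 0.84 and 1.67 and HSP26 between -1.19 and -0.55, while the other 5 genes with error bars have means between -0.28 and 0.49.

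HSP42 (YDR171W), the other alpha-crystallin chaperone, which is active in unstressed cells and gathers misfolded proteins, did not share the values of HSP26. It was at -0.24, 0.34, 0.26 and 0.01 on arrays 1 to 4, below 0 on array 1 alone. The mean was 0.09 ± 0.26 (SD, n = 4), smaller than the spread between arrays. HSP26 and HSP42 did not overlap on these arrays: the highest HSP26 value, -0.55, lay under the lowest HSP42 value, -0.24. Since HSP26 was chosen with its mean in view and other pairs of genes were not compared, nothing is read from this.

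HSP31 (YDR533C), which encodes a protein of the DJ-1 family that removes methylglyoxal and acts as a chaperone, was above 0 on all arrays. Its values were 0.14, 0.66, 0.33 and 0.84 on arrays 1 to 4, both arrays with Congo red RNA in channel 1 being the higher ones. The mean was 0.49 ± 0.32 (SD, n = 4), a ratio of 1.41. The array 2 value rests on spots at 1.29 and 0.03, which disagree by 1.27. On the other arrays the spots of HSP31 were at most 0.30 apart, but on array 1 they were at 0.29 and -0.01, on either side of 0. The mean of HSP31 was 0.70 with the first spot alone and 0.28 with the second alone.

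HSP30 (YCR021C), for a plasma membrane protein that dampens the proton pump Pma1, was at 0.46, -0.03, 0.23 and 0.76 on arrays 1 to 4. Array 2 was the one array not above 0. The mean of 0.36 ± 0.34 (SD, n = 4) was about as large as the spread. Both spots of HSP30 lay within 0.23 of each other on every array, the closest agreement in the group, so its spread lay between arrays rather than between spots.

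DDR2 (YOL052C-A), named for DNA damage and known to respond to many stresses, was at -0.71, -0.25, -0.51 and 0.34 on arrays 1 to 4. Array 4 went against the other arrays. The mean was -0.28 ± 0.45 (SD, n = 4), within the spread between arrays. DDR2 is another Msn2/4 target like HSP12, but their values did not overlap: the highest DDR2 value, 0.34, lay below the lowest HSP12 value, 0.84. Since HSP12 was chosen with its mean in view and other pairs of genes were not compared, nothing is read from this.

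GRE1 (YPL223C), a hydrophilin gene known for induction by drying and high salt, was at 0.63, 0.30, 0.48 and -0.26 on arrays 1 to 4, with a mean of 0.29 ± 0.39 (SD, n = 4). Its 2 spots did not give the same reading. The first spot was at 1.25, 0.65, 1.16 and -0.27 on arrays 1 to 4, and the second at 0.00, -0.04, -0.20 and -0.25. With the first spot alone the mean of GRE1 was 0.70, and with the second alone it was -0.12, so its direction depends on the spot. SIP18 (YMR175W), the paralog of GRE1, for a phospholipid-binding hydrophilin, had a value of -0.50 on array 2 and -2.46 on array 3, from a different spot each time. Its other 6 spot values were blank, and no mean is drawn from the remaining 2.

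**Figure D2:**
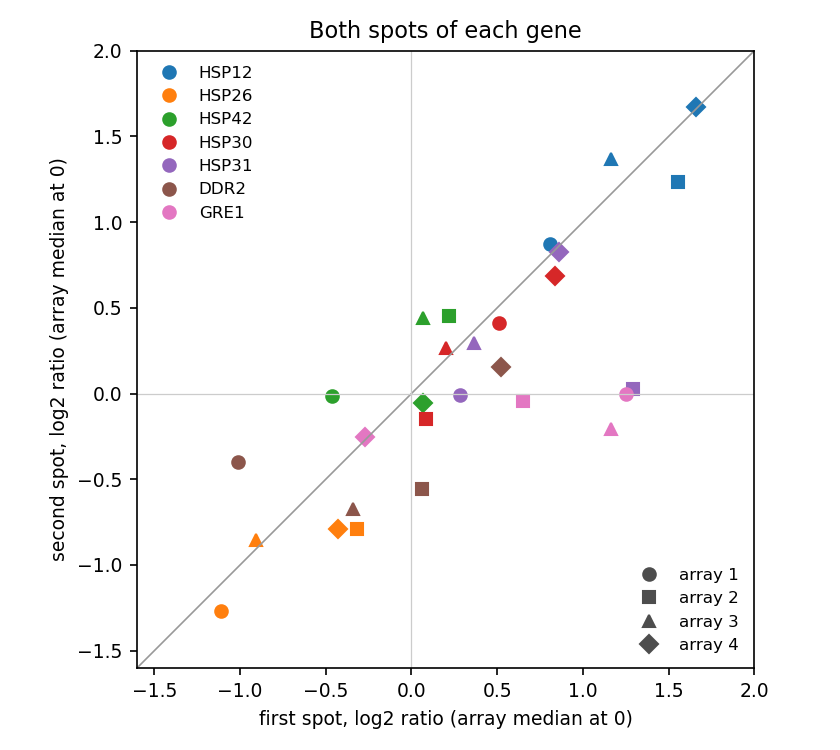
First spot against second spot of 7 small stress protein genes (both axes log2 ratio, array median at 0); colours are genes, symbols are arrays and the line marks equal values. HSP12 and HSP26 keep to opposite corners with both spots, while GRE1 on arrays 1 and 3 and HSP31 on array 2 lie far from the line, with spots 1.26, 1.37 and 1.27 apart.

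Over the table, the median gap between adjacent spots of a gene was 0.16, 0.25, 0.16 and 0.15 on arrays 1 to 4. HSP12 stayed near that, with gaps of 0.06, 0.32, 0.21 and 0.01. HSP26 had gaps of 0.16, 0.47, 0.06 and 0.36, and each of its 8 spot values was below 0, as each of the 8 of HSP12 was above 0. The gaps of HSP42 ran from 0.12 to 0.44 and those of DDR2 from 0.34 to 0.62.

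Ordered by mean, the genes ran HSP12, HSP31, HSP30, GRE1, HSP42, DDR2 and HSP26. The means of HSP12 and HSP31 lay 0.80 apart and those of DDR2 and HSP26 0.53 apart, in both cases more than the SD of either gene. These gaps lie beside HSP12 and HSP26, which were chosen with their means in view, so nothing is read from them. The neighbours between HSP31 and DDR2 differed by less than the larger of their SDs. With arrays 2 and 4 turned the order would be GRE1 at 0.27, HSP30 at -0.01, HSP42 at -0.08, HSP26 at -0.23, HSP12 at -0.24, HSP31 at -0.26 and DDR2 at -0.33. As read, the median of the 7 tested genes was 0.29, beside a median of -0.01 over all genes tested, and 5 of the 7 had a mean above 0.

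In the limma fit across the whole table, 0 of the 7 tested genes passed an adjusted p under 0.05, where 0.0911% of all genes did (5 of 5489, all above 0). At an unadjusted p under 0.05 there were 3 of the 7 and 425 of the 5489. HSP12, HSP26 and HSP31 had 1 sign on all 4 arrays, which makes 3 of 7, where 18.2% of the 5124 genes with 4 values did. Since the group was chosen from this comparison, nothing is read from these counts.

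The difference between the channel assignments was not used to choose the genes, and it was tested. HSP12 averaged 1.05 on arrays 1 and 3 and 1.53 on arrays 2 and 4, a difference of -0.48 ± 0.27 (limma SE). HSP26 averaged -1.04 on arrays 1 and 3 and -0.58 on arrays 2 and 4, a difference of -0.45 ± 0.23. Both genes were thus lower, by nearly the same amount, where Congo red RNA was in channel 2. DDR2 differed by -0.65 ± 0.30 and HSP31 by -0.52 ± 0.22 in the same direction, while GRE1 differed by 0.53 ± 0.29 the other way. HSP42 and HSP30 differed by -0.16 ± 0.29 and -0.02 ± 0.36. None of the 7 passed in this limma test, whose adjusted p ran from 0.34 to 0.98 for them. Over all genes 0% passed (0 of 5489), and 0 of the 7 and 912 of the 5489 had an unadjusted p under 0.05. The median absolute difference of all genes was 0.49, so the values of HSP12 and HSP26 are of a usual size. If the ratios of arrays 2 and 4 ran the other way, the mean of HSP12 would be -0.24 and that of HSP26 -0.23.

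By a rule set for the purpose, the 5 genes with the smallest root mean square difference over the 4 arrays were looked up among 5123 genes. Closest to HSP12 was PCM1, of the route to the chitin precursor, with a difference of 0.16 and values of 0.94, 1.09, 1.27 and 1.61 on arrays 1 to 4. DOP1, of vesicle traffic from endosomes, followed at 0.28 and RCN1, a regulator of calcineurin, at 0.30. FLC1, a putative flavin carrier, and PRB1, the vacuolar protease B, were both 0.35 to 0.36 away. None of the 5 is one of the small stress protein genes. Those are only a few of the 5123 genes compared, so nothing is read from that.

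HSP26 was most like ADE1, of purine synthesis, at 0.16, with values of -1.11, -0.53, -0.85 and -0.30 on arrays 1 to 4. PGA3, for a reductase of the endoplasmic reticulum membrane, was 0.23 away and YGP1, a secreted glycoprotein gene of the general stress list below, 0.24. The glycine cleavage gene GCV2 was 0.25 away and REE1, linked to enolase, 0.26. Each of these 5 genes was below 0 on every array, and in the mean lower on arrays 1 and 3 than on arrays 2 and 4, as HSP26 was and as the rule favours.

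**Figure D3:**
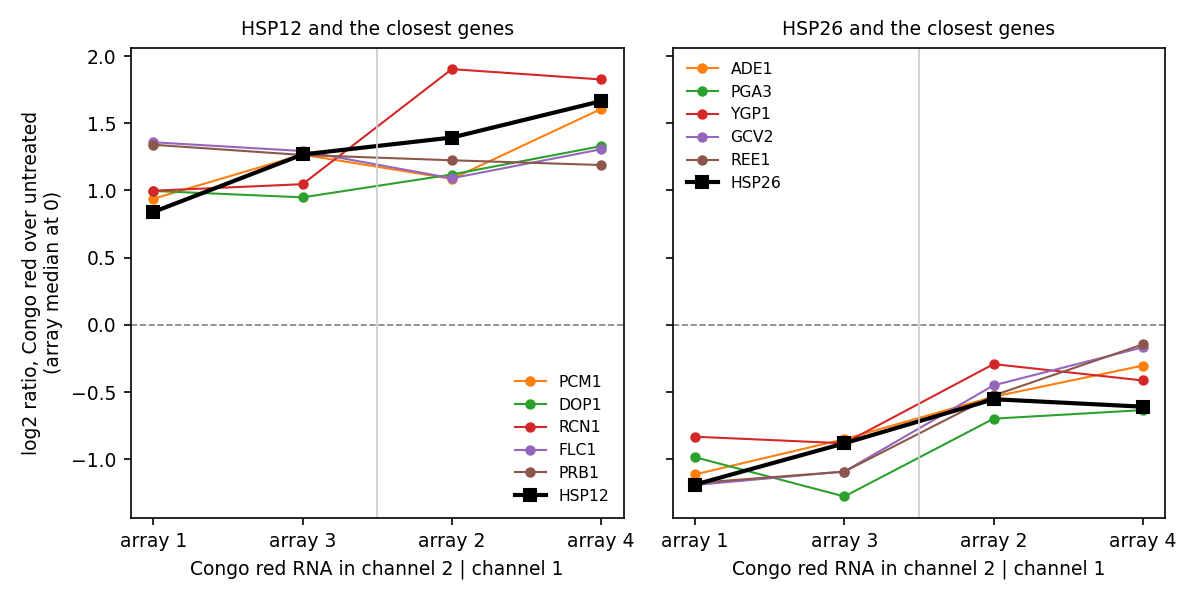
Log2 ratio on each array (y axis, Congo red over untreated, array median at 0) of HSP12 (left) and HSP26 (right) in black and of the 5 genes closest to each in colour. Arrays 1 and 3 stand left of the line and arrays 2 and 4 right of it; the HSP12 set lies above 0 and the HSP26 set below 0 on every array.

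None of the other general stress genes tested had a mean as high as that of HSP12, as the ratios are read here. HSP12 was chosen with its mean in view, so nothing is read from that. On arrays 1, 2 and 3 some lay above HSP12, which was at 0.84, 1.39 and 1.27. Examples were MSC1 at 3.02 on array 1, ALD3 at 2.88 on array 2 and XBP1 at 2.01 on array 3. On array 4 none of them did. With arrays 2 and 4 turned, 31 of the 39 would lie above HSP12. Of 40 targets of Msn2 and Msn4 other than the small stress protein genes, 39 were tested, and none passed the limma threshold in either direction. At an unadjusted p under 0.05 there were 6 of the 39, beside 425 of 5489 genes. The list median was 0.13, beside -0.01 for all genes, and 25 of the 39 had a mean above 0, or 64.1%, beside 48.0% of all genes. One sign on all 4 arrays was seen in 12 of the 35 with 4 values, beside the 18.2% of all genes given above.

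TPS2, of trehalose synthesis, was at 0.98, 1.504, 1.00 and 0.92 on arrays 1 to 4, with a mean of 1.10 ± 0.27 (SD, n = 4, limma adjusted p = 0.21). NTH1, for the trehalase that breaks the sugar down again, was at 0.73, 0.64, 0.80 and 0.67, a mean of 0.71 ± 0.07 (limma adjusted p = 0.29). Both were positive on all arrays. YGP1 was at -0.83, -0.29, -0.88 and -0.41 (limma adjusted p = 0.56), and GND2, of the pentose phosphate route, at -0.51, -0.49, -0.71 and -0.27 (limma adjusted p = 0.56). These 2 genes lay below 0 on all arrays, on the side of HSP26.

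Heat shock chaperones under Hsf1 had a list median of -0.05, beside -0.01 for all genes, and 8 of 22 had a mean above 0, or 36.4%, beside 48.0% of all genes. None of the 22 passed the limma threshold in either direction, and 0 had an unadjusted p under 0.05. In 9 of the 22, both arrays of one channel assignment lay above 0 and both of the other below, so that their means hide opposite values. That split held for 26.4% of all genes with 4 values. SSE2, whose mean of 0.53 was the highest of the list, was among the 9. SIS1, for an Hsp40 co-chaperone, was at -0.38 ± 0.25 (SD, n = 4), and the Hsp70 gene SSA1 was at -0.29 ± 0.04. HSP82, for an Hsp90, was at -0.26 ± 0.11, and SSE1, for an exchange factor of Hsp70, at 0.26 ± 0.10. Each of these 4, named for having the smallest p of the list, had 1 sign on all arrays, with limma adjusted p from 0.64 to 0.70. They were the only ones of the list: 4 of 22 had 1 sign, beside 18.2% of the 5124 genes with 4 values. As the ratios are read, HSP26 at -0.81 lay lower than the lowest gene of this list, CUR1 at -0.44, and HSP12 higher than its highest, SSE2 at 0.53. HSP12 and HSP26 were chosen with their means in view, so nothing is read from this order. The order failed on most single arrays. Above HSP12, at 0.84, 1.39 and 1.27, lay SSA3 at 2.05 on array 1, AHA1 at 1.69 on array 2 and BTN2 at 2.68 on array 3. Below HSP26, at -0.55, -0.88 and -0.61, lay BTN2 at -2.67 on array 2, HSP78 at -1.08 on array 3 and SSA3 at -0.75 on array 4. On array 4 HSP12 was above every gene of the list, and on array 1 HSP26 was below every one.

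Genes of the regulators gave a list median of 0.08, and none of 19 tested passed the limma threshold in either direction, with 1 at an unadjusted p under 0.05. That gene was RLM1, the transcription factor of the wall route, at 1.81, -0.29, 1.91 and 1.17 on arrays 1 to 4 (limma adjusted p = 0.63), with array 2 against the rest. PDE2, for a phosphodiesterase of cyclic AMP, was at 0.37 ± 0.26 (SD, n = 4), SKO1, a factor under Hog1, at 0.27 ± 0.16, and the adenylate cyclase gene CYR1 at 0.26 ± 0.27. Their limma adjusted p ran from 0.65 to 0.73. Of the genes for the factors themselves, named after their values were seen, MSN2 was at 0.08 ± 0.49, MSN4 at 0.38 ± 0.83 and HSF1 at -0.11 ± 0.56, each less than its spread.

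Among relatives of the 8 genes none of 7 passed the limma threshold in either direction, and 1 had an unadjusted p under 0.05. That was MRH1, a membrane protein gene related to HSP30, at -0.49, -1.55, -0.83 and -0.94 on arrays 1 to 4 (limma adjusted p = 0.40), below 0 where HSP30 was mostly above. YRO2, another relative of HSP30, was at 2.12, -2.74, 0.53 and -1.43, so that arrays 1 and 3 stood against arrays 2 and 4. HOR7, the paralog of DDR2, was at -0.45, 0.89, -0.32 and 0.57, and STF2, for another hydrophilin, at -0.27, 0.89, -0.08 and 0.50. Both split by channel assignment in the reverse sense to YRO2.

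HSP32, HSP33 and SNO4 are relatives of HSP31 and near-identical to each other. Their spots may share signal with each other, so their values are uncertain. HSP33 was at 0.86, 3.88, -0.02 and 0.05 on arrays 1 to 4, and SNO4 at 2.69, -0.17, 1.68 and -3.26. HSP32 had no value on array 1 and was at 1.01, -1.21 and -0.70 on arrays 2 to 4. Ranges of 3.91 for HSP33, 5.96 for SNO4 and, over 3 arrays, 2.22 for HSP32 stand against 0.70 for HSP31. The 3 relatives thus did not share the narrow range of HSP31.

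**Figure D4:**
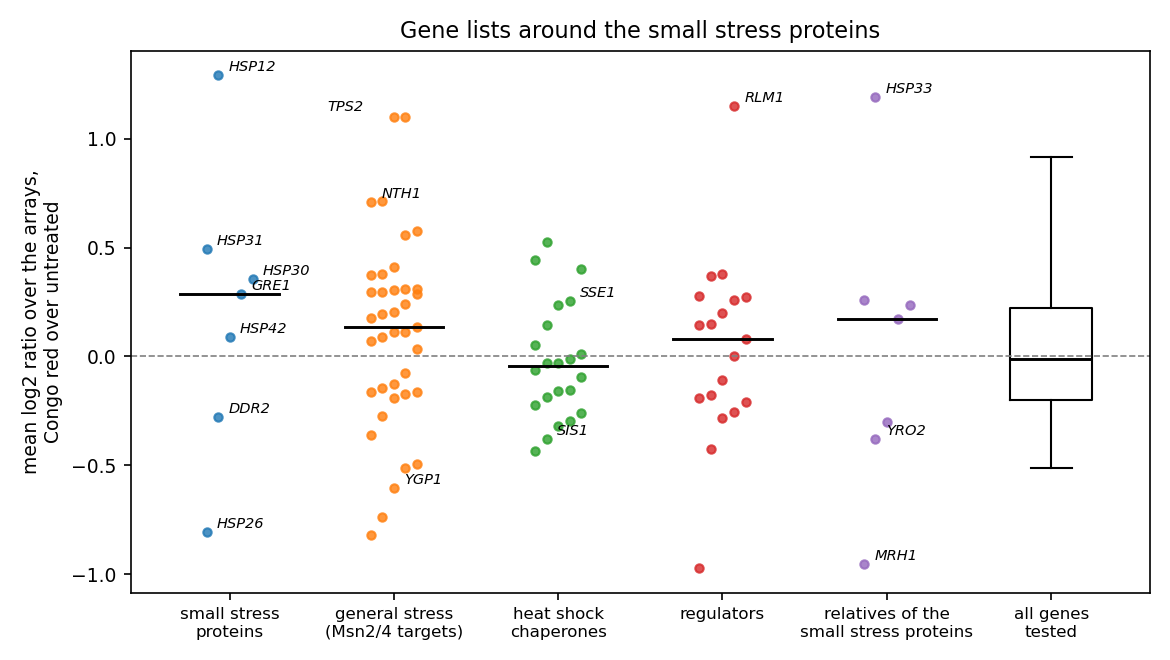
Mean log2 ratio over the arrays (y axis, Congo red over untreated) of each tested gene in 5 lists, with black bars at the list medians; the box at the right shows all 5489 genes tested, with whiskers at the 5th and 95th percentiles. The list medians run from -0.05 to 0.29, and HSP12 and HSP26, which were chosen with their means in view, lie outside those whiskers.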

How the data were processed

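The authors deposited 1 log2 ratio per spot for each of 4 2-colour arrays. That unit was read from the values, which are signed and reach a ratio of 1e+05 on 36 spots. How the arrays were scanned, background-corrected or normalized, and which channel is on top of the ratio, is not given in the sources used here. Arrays 1 to 4 had deposited medians of 0.31, 0.02, -0.46 and 0.37, so they had not been centred over all spots, and blank spots made up 1.67% to 9.30%. Groups came from the labels.

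Each array was centred on its median over all spots. Spots were named through the platform annotation (11138 with 1 symbol, 0 with several, 1662 unnamed), and matched on gene number to RefSeq's gene table for assembly R64, which held 11128 and changed 0 symbols. Coordinates are not printed, since the array's build is not named. The spots of a gene were averaged, and 5489 genes, those measured on 3 or more arrays, were fitted with limma 3.58.1 in R 4.3.3 (lmFit and eBayes, two-sided, Benjamini-Hochberg adjustment, threshold 0.05), with the mean against 0 and, in another fit, a term for the channel assignment. The fits were tested on simulated data.

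The genes described, the 4 lists and the tests were chosen with earlier results of these data known. Named from each list were its 4 genes with the smallest p and all relatives; further names followed a look at their values. The alternatives tried were scaling to a common spread, no centring, quantile normalization, centring within runs of 400 spots, leaving out values at the upper limit, genes on all or on at least 2 arrays, single spots, arrays 2 and 4 turned, a channel term, arrays averaged in pairs, and each array left out. Planned comparisons of promoter and protein sequences were not made here.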

Additional observations from a re-analysis of the deposited data

Results flagged for a closer look

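TPS2 on array 2, at 1.504, stood apart from its other 3 values, and so did CWP1 on array 4, at 3.06. Of 45 genes and list medians with 4 values that were looked at, these 2 were set apart in this way, where chance alone gives about 1 in 20. None of the 7 small stress protein genes with 4 values was among them.

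For 4 of the 6 relatives with 4 values, both arrays of one channel assignment lay above 0 and both of the other below. Arrays 1 and 3 minus arrays 2 and 4 gave 3.41 for YRO2 and 3.903 for SNO4, against -1.12 for HOR7 and -0.87 for STF2. None passed the limma test of that difference, with adjusted p of 0.25 for YRO2 and HOR7, 0.28 for SNO4 and 0.27 for STF2. That test passed 0 genes of the whole table, with 912 at an unadjusted p under 0.05. This split is common in the table: it was seen in 1352 of 5124 genes with 4 values, or 26.4%, and in 9 of 22 heat shock chaperones, 8 of 35 general stress genes and 4 of 18 regulators. It was seen in 0 of the 7 small stress protein genes. A gene chosen for a mean far from 0 is less likely to split in this way. Since the means of HSP12 and HSP26 were in view when the group was chosen, nothing is read from that count.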

How the results depend on the processing

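The mean of HSP12 kept its sign in 13 alternatives that leave the ratio direction as read, from 1.17 to 1.55, and so did that of HSP26, from -0.95 to -0.68. Several of these could not change the sign, so the count is no measure of support. The filters on the number of arrays left both means as they were. Each gene had 1 sign on all arrays, which a mean keeps when any array is left out. Leaving out each array in turn gave 1.17 to 1.44 for HSP12 and -0.89 to -0.68 for HSP26. HSP30, HSP31 and DDR2 kept their sign too, but smaller means leaned on single arrays. DDR2 was at -0.49 without array 4 and -0.14 without array 1, HSP30 at 0.22 without array 4, and GRE1 at 0.47 without array 4 and 0.17 without array 1. HSP42 was at 0.0074 without array 2, 0.03 without array 3 and 0.20 without array 1. In other settings HSP42 changed sign with its first spot alone (-0.03) and GRE1 with its second (-0.12). With arrays 2 and 4 turned, the means were -0.24 for HSP12, -0.26 for HSP31 and -0.01 for HSP30, and the general stress list had a median of 0.0037. The 5 calls over all genes became 0 without any 1 array, with scaling to a common spread, quantile normalization, centring within runs of spots, a channel term, either pair averaging and arrays 2 and 4 turned, with 222 to 726 genes at an unadjusted p under 0.05. Fewer arrays enter the fits without 1 array or with pairs; for the others the cause was not tested. None of the small stress protein genes was called in any alternative. The channel difference called 79 genes without centring, which leaves the unequal array medians in the values, and none of the 7 was among them; it called 0 in the other alternatives, with 332 to 1387 genes at an unadjusted p under 0.05. With all alternatives, list medians for heat shock chaperones ran from -0.13 to 0.04, for regulators from -0.02 to 0.20 and for relatives from -0.44 to 0.23. Each ratio already sets Congo red against untreated RNA on 1 array, and no further block by array number could be fitted within 1 group. Depth of signal over background is unknown.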
